A study of Mus musculus with 30 samples.

Results

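Baicalin is a flavone glucuronide of the root of Scutellaria baicalensis, and here it was added to an angiotensin II infusion in mice. The comparison takes the 5 abdominal aorta libraries labelled AngII+BAI and the 5 labelled AngII, 10 of the 30 RNA-seq libraries of the series, and describes them across 12160 tested genes. All of the mice were wild-type C57BL/6, treated for 28 days. Mice of the AngII group received angiotensin II at 500 ng/kg/min with saline as the second treatment, and those of the AngII+BAI group received the same infusion with baicalin at 5 mg/kg/d. The Control group received saline. The remaining groups received the infusion with ethoxysanguinarine (ETH) or gastrodin (GAS) at 5 mg/kg/d, or with the angiotensin receptor blocker valsartan (VAL) at 10.4 mg/kg/d. Each group had 5 libraries, numbered in the order of their records. The ages and the sex of the mice are not given in the sources used here, and both compared groups carry the infusion, so the comparison speaks of baicalin on top of angiotensin II.

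Angiotensin II is the peptide hormone of the renin-angiotensin system that narrows arteries. It acts on the type 1 receptor of smooth muscle through G proteins that raise intracellular calcium, and RGS proteins shorten that signal. Nitric oxide opposes it by binding soluble guanylate cyclase, whose product cyclic GMP relaxes the muscle, while potassium channels hold the membrane potential down. Long infusion is known for thickening of the aortic wall, deposition of matrix and entry of immune cells.

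Values are FPKM, read fragments scaled by transcript length and library depth, summed over the Ensembl transcripts of a gene that were listed for both groups. The spacing of the low values corresponded to 69.8 to 80.8 M reads per library in the 10 libraries. AngII+BAI 1 stood apart, with 20.9% of the shared transcripts listed at 0 against 7.02 to 10.4% in the other 9. AngII+BAI 3 and 5 stood apart in their cell type genes, as described with the contractile and macrophage genes, and AngII 1, 4 and 5 and AngII+BAI 3 and 5 carried sympathetic neuron genes. Every transcript of the table had a mean of at least 0.5 FPKM in the AngII group, or in both the Control and the AngII+BAI group, so a gene under that level in Control and AngII could not be seen to rise.

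Most of the genes past the threshold were lower with baicalin, while over all tested genes 6064 of 12160 had a fold change above 0. Of 12160 genes tested with limma on log2(FPKM + 1), 53 passed a Benjamini-Hochberg adjusted p of 0.05, which is 0.436% of the genes. Of these, 50 fell (0.411%) and 3 rose (0.0247%). The largest of the 3 rises was that of Slc39a1, a zinc importer, on the log2(FPKM + 1) scale, and that of Hdc by the ratio of group means. The split was 40 lower and 15 higher after quantile normalization and 51 lower and 17 higher after centring each library on its median. The fallen genes include the nitric oxide receptor subunit Gucy1a1, the G protein regulator Rgs4, the sodium pump subunit Atp1b2, the glutathione transferases Gsta3 and Gstm1, the complement genes C7 and Masp1, the BMP signalling genes Smad9 and Bmp3, and the mast cell receptor gene Kit. Among those that fell, log2 fold changes ran from −0.45 to −2.41 with a median of −0.99, whereas the median over all tested genes was −0.0014. Without adjustment 1746 genes (14.4%) had a limma p under 0.05. Fold changes on this scale understate the change of genes of low level.

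**Figure D1:**
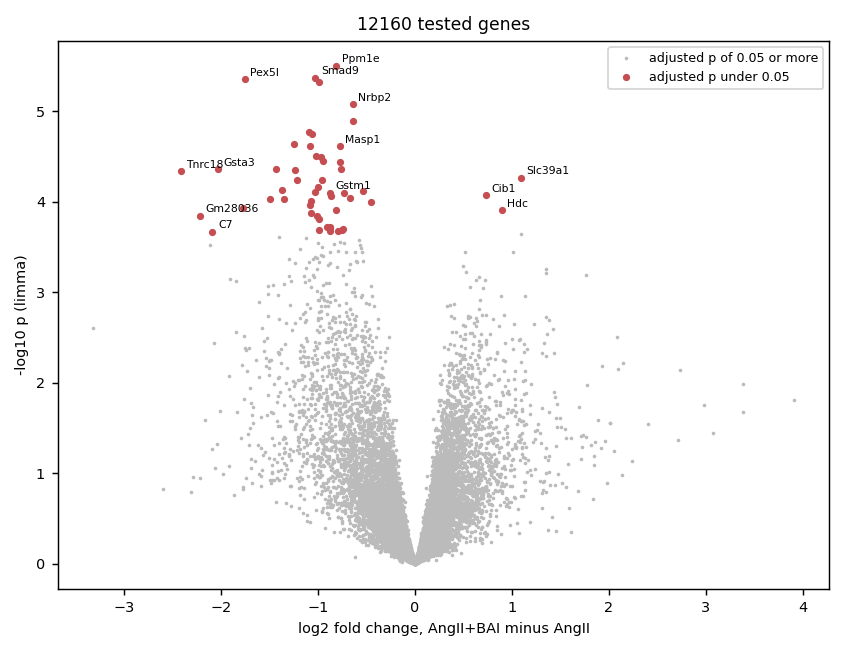
Log2 fold change (AngII+BAI minus AngII, x axis) against −log10 of the limma p (y axis) for the 12160 tested genes, with 1 point per gene. The 53 genes with an adjusted p under 0.05 are in red, and 50 of them lie left of 0.

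The ranges of the 5 AngII and the 5 AngII+BAI libraries did not overlap for 40 of the 53 genes, against 1.69% of all tested genes. The remaining 13 overlapped in at least 1 library. 28 of the 53 had a mean of at least 5 FPKM in 1 of the groups, and 25 stayed under that level in both. Masp1, Syt2, Hoxd4 and Gm28036 reached 1 FPKM in all AngII and in no AngII+BAI library, so that they passed the filter on low values through the AngII group alone. The Control mean was below the AngII mean for 48 of the 50 genes that fell, and the AngII+BAI mean was below the Control mean for 49 of them. Since the AngII and AngII+BAI values chose these genes, the share without overlap and this order are descriptions only.

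**Figure D2:**
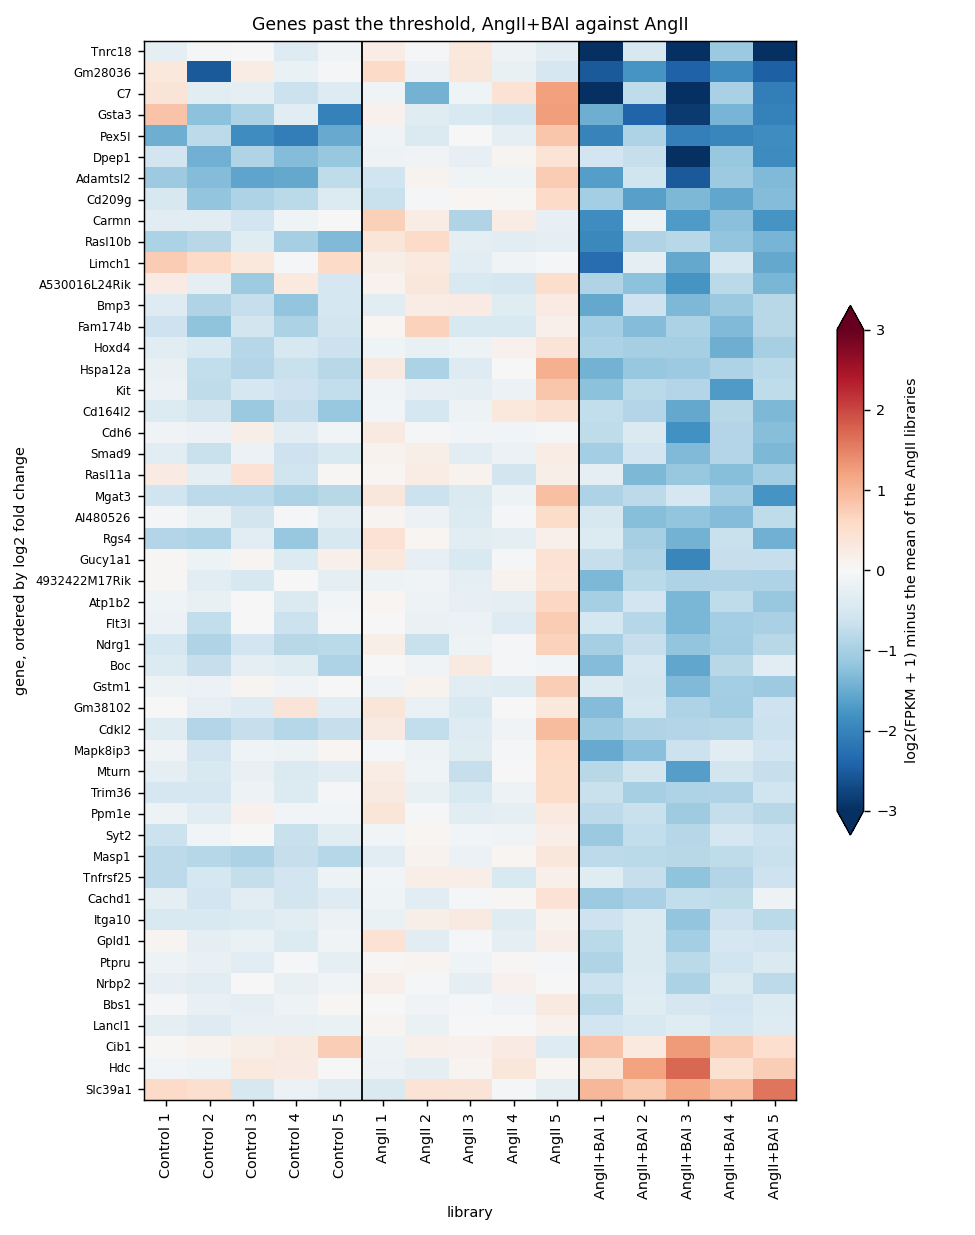
Genes past the threshold that are named in the text (rows, ordered by log2 fold change) in the Control, AngII and AngII+BAI libraries (columns), coloured by log2(FPKM + 1) minus the mean of the AngII libraries. The AngII+BAI columns are blue for the genes that fell, palest in AngII+BAI 2 for many of them, and red for Slc39a1, Cib1 and Hdc.

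The number of calls rests on few libraries. Without AngII 5 or without AngII+BAI 3 no gene passed (0 and 0 of the 53, with 1434 and 1464 genes at an unadjusted limma p under 0.05), and without AngII+BAI 2 the count was 191. It was 8 without AngII 1, 94 without AngII 2 and 32 without AngII 4. Fitting the 10 libraries alone, without the spread of the other groups, called 1 gene, and adding the neuron and skeletal muscle scores of the libraries as terms called 0 (979 at an unadjusted p under 0.05). All 53 genes kept their direction in each of the 27 alternatives that held them, and their largest unadjusted limma p with 1 library left out was 0.00139. Without AngII+BAI 1, 3 and 5, 49 of the 53 had an unadjusted limma p under 0.05. The 53 were chosen from these same libraries, which every alternative reuses in whole or in part, so this is no independent support.

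**Figure D3:**
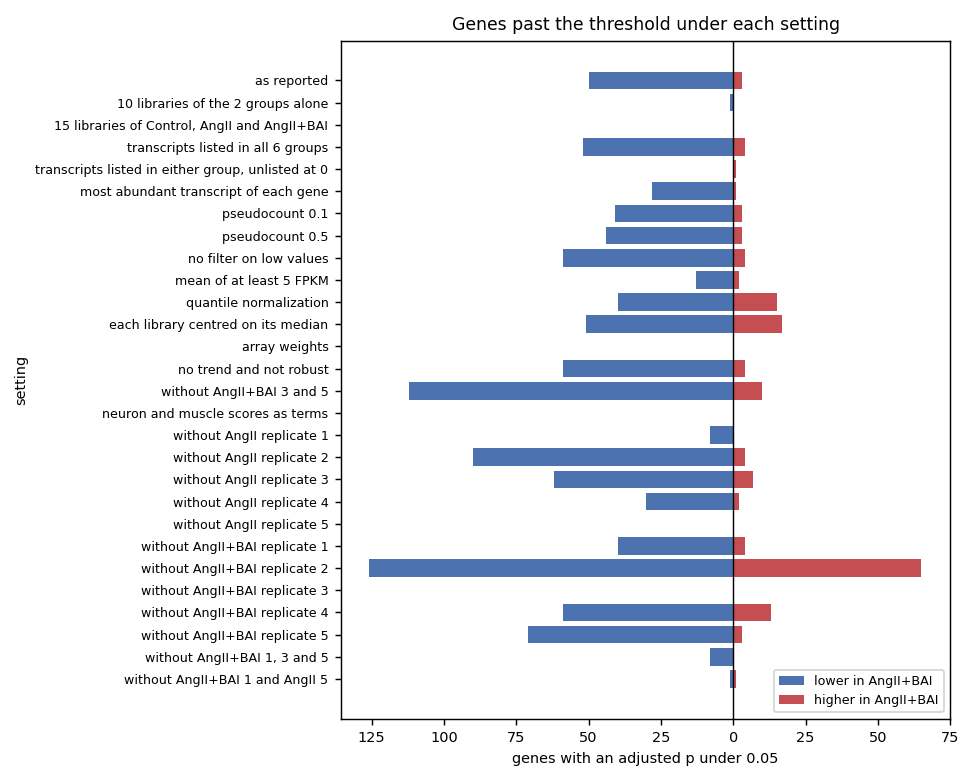
Number of genes with an adjusted p under 0.05 (x axis; lower in AngII+BAI to the left, higher to the right) under each setting of the fit (y axis). The bars are empty without AngII replicate 5, without AngII+BAI replicate 3, with array weights, with neuron and muscle scores as terms and with the 15 libraries of Control, AngII and AngII+BAI.

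Gucy1a1 and Rgs4, which act on vascular tone, were among the genes that fell. Gucy1a1 (ENSMUSG00000033910, chromosome 3, 82092427 to 82145789, minus strand), which encodes the alpha subunit of soluble guanylate cyclase, stood at 44.6, 30.1, 25.7, 34.8 and 49.1 FPKM in AngII 1 to 5 and at 21.9, 18.7, 8.495, 21.7 and 21.9 FPKM in AngII+BAI 1 to 5. All of the AngII+BAI libraries lay below the lowest AngII library, and AngII+BAI 3 lay far below the other 4. The group mean went from 36.8 ± 9.81 to 18.5 ± 5.78 FPKM (SD, n = 5 each), with a log2 fold change of −0.99 ± 0.22 (limma adjusted p = 0.0431). Here and below, the value after ± is the moderated limma standard error for a log2 fold change or difference and the SD for FPKM. The Control mean was 34.7 FPKM. Gucy1b1, the beta subunit of the same enzyme, was at 30.04 ± 4.48 FPKM in the AngII and 21.9 ± 7.797 in the AngII+BAI group and did not pass (log2 fold change −0.51 ± 0.24, adjusted p = 0.335). Prkg1, the cyclic GMP-dependent kinase, was at 7.96 ± 1.26 FPKM in the AngII and 4.62 ± 2.696 in the AngII+BAI group (adjusted p = 0.193), and Nos3, the endothelial nitric oxide synthase, at 2.82 ± 0.4601 FPKM in the AngII and 4.94 ± 4.05 in the AngII+BAI group (adjusted p = 0.604). For the nitric oxide and cyclic GMP list as a whole, 17 of its 22 tested members had a fold change below 0 and its median was −0.27, with Gucy1a1 the only member past the threshold.

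Rgs4 (ENSMUSG00000038530, chromosome 1, 169741477 to 169747642, minus strand) encodes a protein that speeds GTP hydrolysis on the G proteins of vasoactive receptors. Rgs4 stood at 67.8, 51.98, 39.2, 40.2 and 55.3 FPKM in AngII 1 to 5 and at 37.2, 24.3, 18.04, 31.1 and 17.9 FPKM in AngII+BAI 1 to 5. The highest AngII+BAI library, AngII+BAI 1, was just under the lowest AngII library, AngII 3, and the mean fell from 50.9 ± 11.8 to 25.7 ± 8.43 FPKM (log2 fold change −0.99 ± 0.23, adjusted p = 0.0493). Rgs5, its relative in pericytes and smooth muscle, was at 692 ± 332 FPKM in the AngII and 244 ± 87.3 in the AngII+BAI group and did not pass (adjusted p = 0.0993). Ptger3, a prostaglandin E2 receptor gene, had ranges that did not overlap, 14.3 to 32.5 against 5.3003 to 13.1 FPKM, with an adjusted p of 0.0656. Among receptors of vasoactive hormones and RGS genes, 23 of its 32 tested members had a fold change below 0 and its median was −0.27, and Rgs4 alone passed. In the renin-angiotensin list none of the 11 tested members passed. Ace, which makes angiotensin II, was at 105, 147, 124, 98.2 and 103 FPKM in AngII 1 to 5 and at 52.4, 91.3, 22.7, 86.1 and 81.8 in AngII+BAI 1 to 5. Its ranges did not overlap, yet its adjusted p was 0.147. Agtr1a, the type 1 receptor gene, was at 7.87 ± 5.18 FPKM in the AngII and 3.99 ± 1.79 in the AngII+BAI group (adjusted p = 0.366).

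Atp1b2 (ENSMUSG00000041329, chromosome 11, 69599736 to 69605942, minus strand), the beta-2 subunit of the sodium pump, stood at 21.7, 18.6, 17.4, 17.1 and 32.6 FPKM in AngII 1 to 5 and at 9.897, 13.8, 7.502, 11.8 and 8.896 FPKM in AngII+BAI 1 to 5 and fell from 21.5 ± 6.48 to 10.4 ± 2.48 FPKM (log2 fold change −0.97 ± 0.19, adjusted p = 0.0282). AngII 5 was the highest of the 10 libraries, and the ranges did not overlap. In the calcium and potassium list 25 of its 30 tested members had a fold change below 0 and its median was −0.54. The list does not hold Atp1b2, and 1 other gene in it passed.

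**Figure D4:**
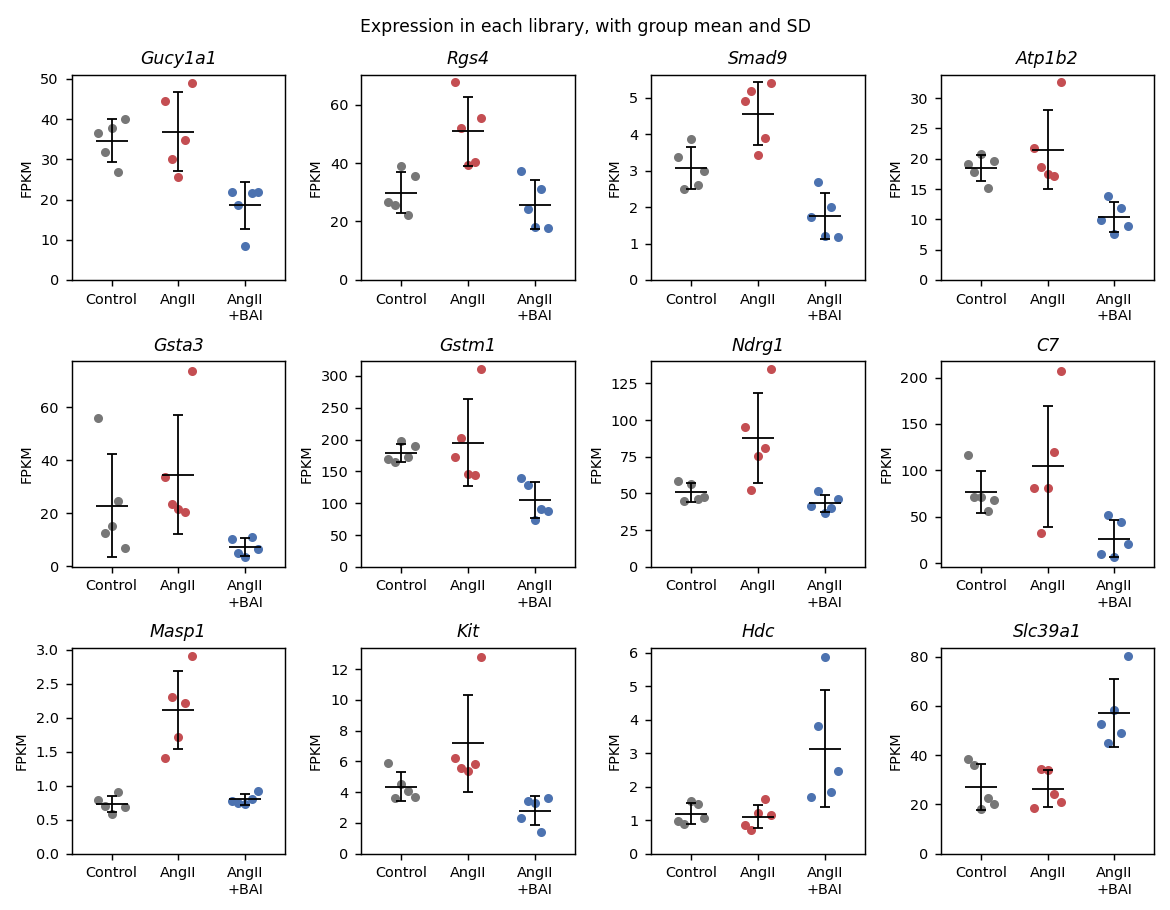
FPKM (y axis) of 12 genes past the threshold in the 5 libraries (points) of the Control, AngII and AngII+BAI groups, with the group mean and SD (bars). Slc39a1 and Hdc are higher in AngII+BAI than in AngII, and the other 10 are lower, with AngII 5 the highest point for Gsta3, Gstm1, Ndrg1, C7, Masp1, Kit, Atp1b2, Smad9 and Gucy1a1.

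The contractile genes of smooth muscle differed within the AngII+BAI group. Of 33 tested members 31 had a fold change below 0, with a median of −0.54, and none passed. The mean log2(FPKM + 1) of the list was 6.66, 6.85, 6.42, 6.39 and 6.51 in AngII 1 to 5 and 6.56, 6.55, 5.35, 6.44 and 5.49 in AngII+BAI 1 to 5. AngII+BAI 3 and 5 were low and the other 3 lay within the AngII range. Without these 2 libraries the median of the list was −0.0092. Acta2, the smooth muscle actin that marks the tissue, was at 4331, 4302, 4139.7, 3312 and 3335 FPKM in AngII 1 to 5 and at 6933, 4545, 869, 4308 and 1603 in AngII+BAI 1 to 5 (adjusted p = 0.615). Myh11, the smooth muscle myosin heavy chain, was at 69.01 and 155 FPKM in AngII+BAI 3 and 5 and at 461 to 610.2 in the AngII libraries (adjusted p = 0.215). For this gene AngII+BAI 1 and 4 lay slightly below the AngII range and AngII+BAI 2 within it. In bulk tissue fewer cells of a type and less RNA per cell cannot be told apart.

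Carmn and Limch1 fell past the threshold, and neither is in the contractile list. Carmn (ENSMUSG00000097324, chromosome 18, 61649625 to 61665537, minus strand), a long noncoding RNA enriched in smooth muscle, stood at 6.74, 4.48, 1.52, 4.56 and 2.997 FPKM in AngII 1 to 5 and at 0.2997, 3.29, 0.454, 0.987 and 0.3799 FPKM in AngII+BAI 1 to 5 and fell from 4.06 ± 1.95 to 1.08 ± 1.26 FPKM (log2 fold change −1.35 ± 0.29, adjusted p = 0.0336). AngII+BAI 2, at 3.29 FPKM, overlapped the AngII range, and the other 4 were below it. Limch1 (ENSMUSG00000037736, chromosome 5, 66745827 to 67057158, plus strand), an actin-associated activator of non-muscle myosin II, fell from 37.5 ± 6.43 to 17.3 ± 9.94 FPKM (log2 fold change −1.23 ± 0.25, adjusted p = 0.0282), from a range of 29.1 to 45.4 to one of 6.803 to 30.04 FPKM. Without AngII+BAI 3 and 5 the fold changes of Carmn and Limch1 were −1.09 and −1.03. That fit keeps AngII+BAI 1, the lowest library of both genes, in which the transcript Limch1-205 was listed at 0. Limch1-205 was at 15.8 to 27.7 FPKM in the AngII libraries. For Limch1 as a whole AngII+BAI 2, at 30.04 FPKM, lay within the AngII range.

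Glutathione transferases attach glutathione to electrophiles, among them products of oxidative stress. Gsta3 (ENSMUSG00000025934, chromosome 1, 21240589 to 21265661, plus strand) stood at 33.6, 23.5, 21.8, 20.3 and 73.8 FPKM in AngII 1 to 5 and at 10.4, 4.91, 3.32, 11.01 and 6.66 FPKM in AngII+BAI 1 to 5. All AngII+BAI libraries lay below the lowest AngII library, and AngII 5 was far above the other AngII libraries. The mean fell from 34.6 ± 22.5 to 7.26 ± 3.37 FPKM (log2 fold change −2.03 ± 0.42, adjusted p = 0.0282), and the Control libraries ran from 6.71 to 55.8 FPKM. Gstm1 (ENSMUSG00000058135, chromosome 3, 108012255 to 108017973, minus strand), which had the highest FPKM of the 53 genes, stood at 173, 202, 147, 144 and 311 FPKM in AngII 1 to 5 and at 140.3, 128, 74.3, 91.3 and 87.5 FPKM in AngII+BAI 1 to 5 and fell from 195 ± 68.7 to 104 ± 28.4 FPKM (log2 fold change −0.88 ± 0.19, adjusted p = 0.0334). All AngII+BAI libraries lay below the lowest AngII library. Both genes have close relatives in their families, so that reads may be split between copies.

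The other antioxidant genes gave no call. In the list of antioxidant genes and targets of NRF2, the transcription factor that answers electrophiles, 17 of 31 tested members had a fold change above 0, the median was 0.11 (−0.0169 after quantile normalization, −0.014 without AngII+BAI 3 and 5 and −0.051 with neuron and skeletal muscle scores in the model), and Gsta3 and Gstm1 alone passed. Nfe2l2, which encodes NRF2, was at 36.7 ± 4.27 FPKM in the AngII and 45.5 ± 6.76 in the AngII+BAI group (adjusted p = 0.171). The list of flavonoid and glucuronide handling genes, the enzymes and carriers that could act on baicalin itself, had no member past the threshold among 14 tested.

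RefSeq promoter windows, 250 bases before the annotated start on GRCm38.p6, were matched by symbol for 34 of the 53 genes and searched on both strands. The core of the antioxidant response element, TGACNNNGC, stood in 6 of the 34 (17.6%), in 13.97% of the 8925 tested genes with a window and in 11.5% of all 27025 symbols. It was present upstream of Gsta3, Cachd1, Cd164l2, Cd209g and Tnfrsf25, which fell, and of Slc39a1, the only one of the 6 that rose. The Gsta3 and Slc39a1 stretches are shown because they carry the same core beside opposite changes. Capitals mark the core, which reads on the opposite strand for Slc39a1, and that stretch stops before the GENCODE start of the gene. The Gsta3 stretch is chr1:21240335-21240584 and the Slc39a1 stretch is chr3:90247942-90248171, both on the plus strand.
Gsta3: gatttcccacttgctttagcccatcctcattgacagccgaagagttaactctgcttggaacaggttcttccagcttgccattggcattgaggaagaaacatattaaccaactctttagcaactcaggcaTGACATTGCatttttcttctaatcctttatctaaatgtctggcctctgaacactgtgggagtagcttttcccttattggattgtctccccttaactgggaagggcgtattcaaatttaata
Slc39a1: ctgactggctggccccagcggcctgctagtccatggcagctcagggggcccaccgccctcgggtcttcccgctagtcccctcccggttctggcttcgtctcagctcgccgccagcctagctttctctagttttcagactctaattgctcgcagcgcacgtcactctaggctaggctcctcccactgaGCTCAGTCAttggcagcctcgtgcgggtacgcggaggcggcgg
The GGGCGG box of SP1 stood in 21 of the 34 windows against 64.9% of the tested genes. The AP-1 site TGANTCA stood in 2, those of Syt2 and Cd209g, against 5.34%. The CArG box, which serum response factor binds in muscle genes, stood in 0 of the 34, in 5 of 28 matched contractile genes (Ldb3, Myl6, Myl9, Srf and Vcl) and in 1.42% of the tested genes. A match is a description of the letters and no match says only that they are not in this window.

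C7 and Masp1, genes of the complement system, fell, and no list of complement genes was among those counted. C7 (ENSMUSG00000079105, chromosome 15, 4988762 to 5063740, minus strand), a component of the membrane attack complex, stood at 81.1, 32.7, 81.3, 119 and 207 FPKM in AngII 1 to 5 and at 9.57, 51.5, 6.77, 44.2 and 20.3 FPKM in AngII+BAI 1 to 5. AngII 2 was the lowest AngII library and lay under AngII+BAI 2 and 4, and the mean fell from 104 ± 65.3 to 26.5 ± 20.3 FPKM (log2 fold change −2.09 ± 0.49, adjusted p = 0.0493). Masp1 (ENSMUSG00000022887, chromosome 16, 23449417 to 23520815, minus strand), a serine protease of the lectin pathway, stood at 1.41, 2.31, 1.71, 2.22 and 2.91 FPKM in AngII 1 to 5 and at 0.776, 0.749, 0.726, 0.807 and 0.928 FPKM in AngII+BAI 1 to 5. The AngII+BAI values were close together, near the Control mean of 0.735 FPKM, and all were below the AngII range (log2 fold change −0.77 ± 0.15, adjusted p = 0.027). Its gene body overlaps Rtp4 on the opposite strand, and the kit does not mark strand, so reads of the pair may be shared. Cd209g, a C-type lectin receptor, fell from 4.43 ± 1.62 to 1.05 ± 0.349 FPKM (adjusted p = 0.0334), Flt3l, a growth factor of dendritic cells, from 9.25 ± 3.63 to 4.16 ± 1.11 FPKM (adjusted p = 0.0302), and Tnfrsf25, a death receptor of T cells, from 2.35 ± 0.607 to 1.004 ± 0.422 FPKM (adjusted p = 0.0493).

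Macrophage markers were high in the same 2 libraries in which the contractile genes were low. The score of the macrophage list, its mean log2(FPKM + 1), was 3.59, 4.34, 5.06, 3.85 and 4.29 in AngII 1 to 5 and 4.26, 4.02, 6.54, 3.77 and 5.73 in AngII+BAI 1 to 5, with 22 of 24 tested members above 0 and a median of 0.73. None passed, and without AngII+BAI 3 and 5 the median was −0.15. Spp1, osteopontin, was at 4.296, 8.05, 147, 5.19 and 9.34 FPKM in AngII 1 to 5 and at 60.2, 25.9, 602, 19.4 and 290.2 in AngII+BAI 1 to 5 (adjusted p = 0.181). Ccl2, the monocyte chemokine, was at 72.2 FPKM in AngII+BAI 3 and at 0.327 to 9.07 in the other 4 (adjusted p = 0.381). S100a8, a neutrophil marker, was at 299.7 FPKM in AngII+BAI 3 and at most 5.26 in an AngII library, and Cd79a, a B cell marker, at 19.6 and 27.7 in AngII+BAI 3 and 5 and at most 1.801 in an AngII library. In the inflammatory mediator list 22 of 25 members were above 0, none passed, and the median went from 0.26 to −0.06 without those libraries. The part of these cells in the calls was not tested.

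Of the mast cell list, Kit fell and Hdc rose. Kit (ENSMUSG00000005672, chromosome 5, 75574916 to 75656722, plus strand), the receptor for stem cell factor, stood at 6.22, 5.57, 5.39, 5.86 and 12.8 FPKM in AngII 1 to 5 and at 2.33, 3.45, 3.26, 1.39 and 3.59 FPKM in AngII+BAI 1 to 5 and fell from 7.16 ± 3.16 to 2.805 ± 0.9302 FPKM (log2 fold change −1.07 ± 0.23, adjusted p = 0.0341). AngII 5 was high, the other AngII libraries were close together, and no AngII+BAI library reached them. Hdc (ENSMUSG00000027360, chromosome 2, 126593667 to 126619299, minus strand), histidine decarboxylase, which makes histamine, stood at 0.849, 0.703, 1.21, 1.62 and 1.16 FPKM in AngII 1 to 5 and at 1.69, 3.81, 5.88, 1.85 and 2.47 FPKM in AngII+BAI 1 to 5 and rose from 1.11 ± 0.356 to 3.14 ± 1.74 FPKM (log2 fold change 0.896 ± 0.20, adjusted p = 0.0377). The lowest AngII+BAI library was just above the highest AngII library, AngII 4, and AngII+BAI 3 was the highest. Cpa3, a granule protease found in mast cells, was at 13.7 ± 7.19 FPKM in the AngII and 9.49 ± 1.35 in the AngII+BAI group (adjusted p = 0.642). Of the 8 tested members of the mast cell list, 6 were below 0 and the median was −0.28, which became 0.07 with neuron and skeletal muscle scores in the model. Its summed level was 36.8 to 115 FPKM in the AngII and 39.5 to 58.1 in the AngII+BAI libraries.

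Smad9 and Bmp3, genes of bone morphogenetic protein (BMP) signalling, fell, and no BMP list was among those counted. Smad9 (ENSMUSG00000027796, chromosome 3, 54755582 to 54801257, plus strand), a receptor-activated SMAD of the BMP branch, stood at 4.92, 5.18, 3.44, 3.89 and 5.41 FPKM in AngII 1 to 5 and at 1.73, 2.699, 1.204, 2.003 and 1.18 FPKM in AngII+BAI 1 to 5 and fell from 4.57 ± 0.856 to 1.76 ± 0.6298 FPKM (log2 fold change −1.03 ± 0.18, adjusted p = 0.0145). Its ranges did not overlap. Bmp3 (ENSMUSG00000029335, chromosome 5, 98854415 to 98884396, plus strand), a ligand of the same family, stood at 3.197, 5.19, 5.31, 3.11 and 5.32 FPKM in AngII 1 to 5 and at 0.836, 2.47, 1.09, 1.46 and 2.001 FPKM in AngII+BAI 1 to 5 and fell from 4.42 ± 1.16 to 1.57 ± 0.666 FPKM (log2 fold change −1.09 ± 0.21, adjusted p = 0.027). Bmpr2, the type 2 BMP receptor, had ranges of 17.2 to 19.3 and 12.6 to 16.3 FPKM and did not pass (adjusted p = 0.19). In the TGF-beta list, which does not hold Smad9 or Bmp3, 16 of its 20 tested members had a fold change below 0 and its median was −0.25, and none of them passed. Boc, a co-receptor of hedgehog ligands, fell from 5.804 ± 0.803 to 2.804 ± 1.31 FPKM (adjusted p = 0.0493).

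Dpep1 (ENSMUSG00000019278, chromosome 8, 123186242 to 123201812, plus strand), a membrane dipeptidase, was the 1 gene past the threshold among 16 tested members of the adventitial fibroblast list, of which 5 were above 0. It stood at 88.5, 92.2, 83.5, 104 and 131 FPKM in AngII 1 to 5 and at 66.4, 61.1, 9.66, 44.3 and 26.01 FPKM in AngII+BAI 1 to 5. The 5 AngII libraries were above all AngII+BAI libraries, of which AngII+BAI 3 and 5 were lowest, and the mean fell from 99.8 ± 19.03 to 41.5 ± 23.8 FPKM (log2 fold change −1.496 ± 0.33, adjusted p = 0.0336). Without AngII+BAI 3 and 5 its fold change was −0.79. Adamtsl2, a secreted glycoprotein of the microfibril, fell from 6.87 ± 2.89 to 2.04 ± 1.36 FPKM (adjusted p = 0.0282), Itga10, a collagen-binding integrin, from 1.91 ± 0.521 to 0.759 ± 0.329 FPKM (adjusted p = 0.0334), and Cdh6, a cadherin, from 4.94 ± 0.656 to 2.05 ± 1.03 FPKM (adjusted p = 0.0334). Matrix genes as a whole gave no call: 28 of 57 tested members were above 0 and the median was −0.0028, which became 0.045 after quantile normalization and 0.024 after centring. It was −0.23 without AngII+BAI 3 and 5 (20 members above 0) and 0.28 with neuron and skeletal muscle scores in the model (34 above 0). Fn1, fibronectin, was at 379.7, 431, 488, 459.7 and 279 FPKM in AngII 1 to 5 and at 135, 516, 39.8, 255 and 287 in AngII+BAI 1 to 5 (adjusted p = 0.334). Col1a1, a fibrillar collagen, was at 2976 FPKM in AngII+BAI 5, at 299.6 to 403 in the other 4 and at 297 to 1568 in the AngII libraries (adjusted p = 0.945). Ltbp4, which holds latent TGF-beta in the matrix, had ranges that did not overlap, 162 to 208 against 40.5 to 142 FPKM (adjusted p = 0.135), and so had the platelet and vessel integrin Itgb3 (15.7 to 25.5 against 5.81 to 12.7; adjusted p = 0.0645) and the endothelial sialomucin Emcn (adjusted p = 0.0658).

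Ndrg1 and Pex5l, which are known from Schwann cells and neurons, also fell. Ndrg1 (ENSMUSG00000005125, chromosome 15, 66929318 to 66969640, minus strand), induced by hypoxia and abundant in myelinating Schwann cells, stood at 95.6, 52.3, 75.6, 81.1 and 135 FPKM in AngII 1 to 5 and at 41.7, 51.9, 36.6, 39.9 and 46.3 FPKM in AngII+BAI 1 to 5 and fell from 87.9 ± 30.6 to 43.3 ± 5.95 FPKM (log2 fold change −0.95 ± 0.19, adjusted p = 0.0282). AngII 2 was only just above the highest AngII+BAI library. Pex5l (ENSMUSG00000027674, chromosome 3, 32949408 to 33143247, minus strand), which regulates HCN channels in neurons, stood at 2.94, 2.13, 3.17, 2.44 and 6.52 FPKM in AngII 1 to 5 and at 0.0559, 1.24, 0.0258, 0.0936 and 0.159 FPKM in AngII+BAI 1 to 5 and fell from 3.44 ± 1.77 to 0.314 ± 0.518 FPKM (log2 fold change −1.75 ± 0.31, adjusted p = 0.0145). Its Control mean was 0.518 FPKM and AngII+BAI 2 was the highest of its group. Hspa12a, a heat shock protein 70 relative, fell from 9.22 ± 5.4997 to 3.39 ± 0.671 FPKM (adjusted p = 0.0396), Mapk8ip3, a scaffold that joins JNK to kinesin, from 11.3 ± 3.404 to 5.86 ± 2.18 FPKM (adjusted p = 0.0493), and Syt2, a vesicle calcium sensor, from 1.17 ± 0.192 to 0.278 ± 0.198 FPKM (adjusted p = 0.0282). Mapk8ip3 overlaps Mrps34 on the opposite and Eme2 on the same strand, and Syt2 overlaps Ppp1r12b on the opposite strand, so their reads may be shared. Ppm1e (ENSMUSG00000046442, chromosome 11, 87226906 to 87359023, minus strand), a protein phosphatase, had the smallest p and fell from 2.34 ± 0.723 to 0.879 ± 0.193 FPKM (log2 fold change −0.81 ± 0.14, adjusted p = 0.0145).

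Neuron markers were unequal between the groups. The score of the neuron and sympathetic ganglion list was 5.21, 0.58, 0.82, 3.61 and 5.57 in AngII 1 to 5 and 0.63, 0.66, 3.09, 0.51 and 3.36 in AngII+BAI 1 to 5, so that AngII 1, 4 and 5 and AngII+BAI 3 and 5 were high. All 24 tested members had a fold change below 0, with a median of −1.52, and none passed. Th, tyrosine hydroxylase, was at 103, 0.0906, 0.80001, 32.02 and 145 FPKM in AngII 1 to 5 and at 0, 0, 20.5, 0 and 20.2 in AngII+BAI 1 to 5 (adjusted p = 0.454), and Dbh, the next enzyme of noradrenaline synthesis, was at 73.3 ± 83.5 FPKM in the AngII and 11.3 ± 15.4 in the AngII+BAI group (adjusted p = 0.454). In the Schwann cell list 14 of its 15 tested members had a fold change below 0 and its median was −1.04, again with no call. Prx, periaxin of myelin, had an adjusted p of 0.0547 with ranges of 2.07 to 11.5 and 1.02 to 1.95 FPKM. With neuron and muscle scores as terms, the fold change of Ndrg1 was −0.60 and that of Pex5l −1.67, and all 53 genes had an unadjusted p under 0.05 in that fit, with a smallest adjusted p of 0.212.

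**Figure D5:**
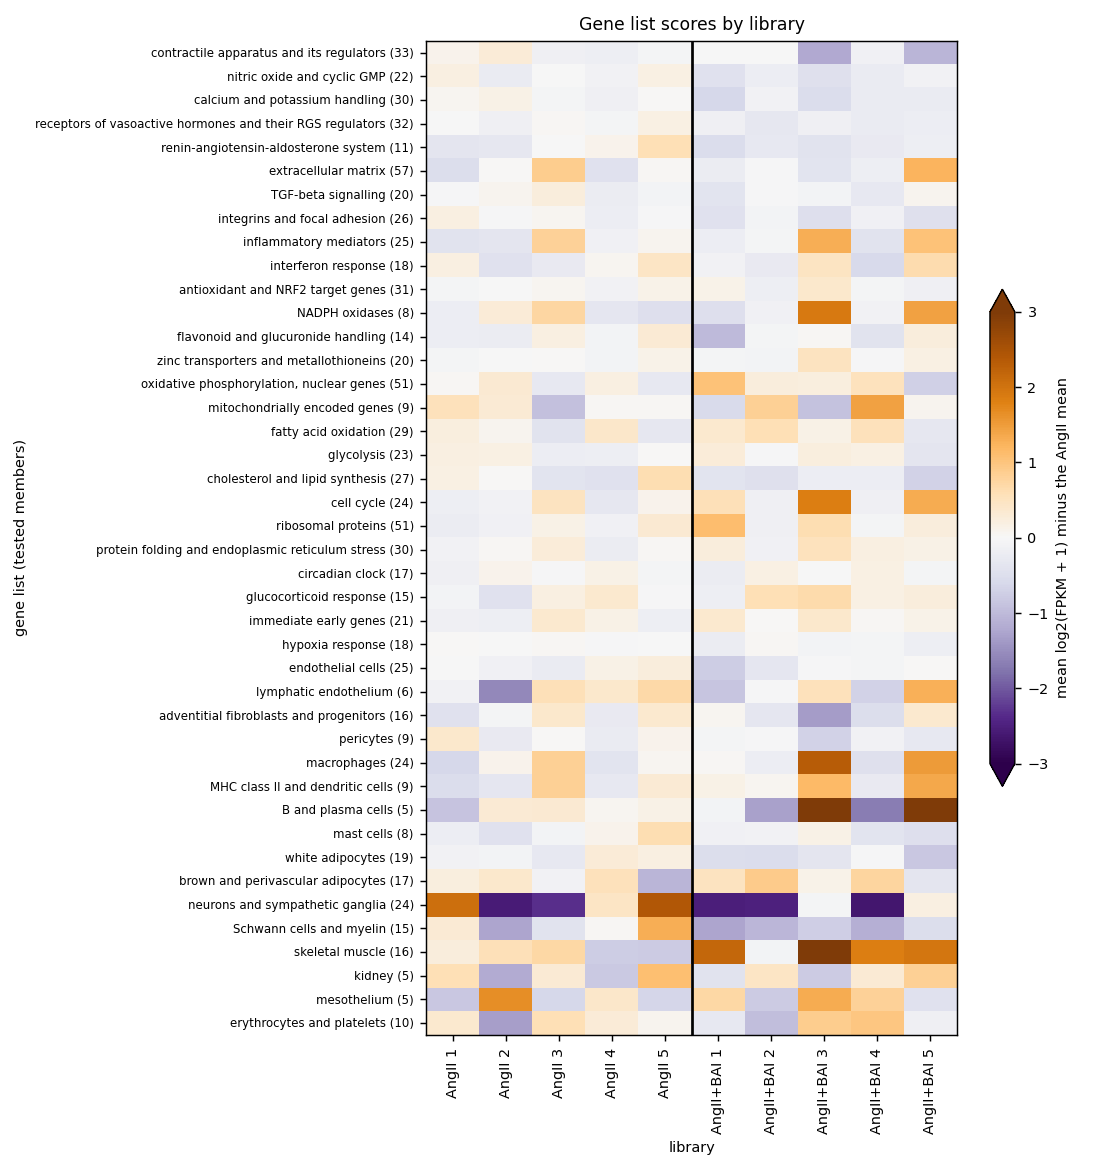
Mean log2(FPKM + 1) of each gene list with at least 5 tested members (rows, number of tested members in brackets) in the 10 libraries (columns), minus the mean of the AngII libraries. Contractile genes are low and macrophage, B cell and cell cycle genes high in AngII+BAI 3 and 5, and neuron genes are high in AngII 1, 4 and 5.

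Further genes that fell encode signalling proteins and noncoding RNAs. Rasl10b and Rasl11a, small GTPases of the Ras family, fell from 4.303 ± 1.66 to 1.23 ± 0.624 FPKM and from 6.18 ± 1.37 to 2.62 ± 1.23 FPKM (adjusted p = 0.027 and 0.0282). The receptor tyrosine phosphatase Ptpru stayed under 5 FPKM and fell from 2.03 ± 0.177 to 0.956 ± 0.286 FPKM (adjusted p = 0.0261). Nrbp2, a pseudokinase, was measured well above the detection limit in all libraries, fell from 25.5 ± 3.07 to 16.1 ± 2.82 FPKM with ranges that did not overlap, and had one of the smaller adjusted p-values (0.0204). Trim36, a ubiquitin ligase, fell from 2.79 ± 1.09 to 1.09 ± 0.262 FPKM (adjusted p = 0.0377). The fall lay in the transcript Trim36-202, with means of 1.99 FPKM in the AngII and 0.117 in the AngII+BAI group. Trim36-201 had means of 0.796 FPKM in the AngII and 0.977 in the AngII+BAI group.

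On the log2(FPKM + 1) scale the largest fold change was that of Tnrc18 (ENSMUSG00000039477, chromosome 5, 142724661 to 142817662, minus strand), a large chromatin-associated protein. By the ratio of group means Gm28036 and Pex5l, among others, fell further. Tnrc18 stood at 15.1, 12.3, 16.3, 11.5 and 10.1 FPKM in AngII 1 to 5 and at 0.124, 8.98, 0, 5.402 and 0.676 FPKM in AngII+BAI 1 to 5. AngII+BAI 1, 3 and 5 were near 0, and AngII+BAI 2 and 4 were higher but under the AngII range (log2 fold change −2.41 ± 0.50, adjusted p = 0.0282), and without AngII+BAI 3 and 5 the fold change was −1.74. The sum is that of the transcripts Tnrc18-202 and Tnrc18-205. Tnrc18-202 was listed at 0 in AngII+BAI 1, 3 and 5 and at 9.15 to 12.8 FPKM in the AngII libraries. Transcripts of the gene not listed for both groups are not in this sum, and a shift of reads to them was not tested. Gm28036 (ENSMUSG00000098950, chromosome 2, 156071845 to 156127092, minus strand) fell from 4.98 ± 1.87 to 0.276 ± 0.323 FPKM (log2 fold change −2.21 ± 0.50, adjusted p = 0.0405), but its body overlaps Cpne1, Nfs1 and Rbm12 on the same strand, so the assignment of its reads is uncertain. The 3 long intergenic noncoding RNAs of 1 locus on chromosome 5 also fell: 4932422M17Rik (123138931 to 123141569, from 2.63 ± 0.709 to 0.822 ± 0.243 FPKM), AI480526 (123133723 to 123141666, from 3.28 ± 1.11 to 1.14 ± 0.569 FPKM) and Gm38102 (123133939 to 123137695, from 1.95 ± 0.703 to 0.6001 ± 0.347 FPKM), with adjusted p of 0.0145, 0.0334 and 0.0493. AI480526 overlaps the others on the opposite strand, so that the 3 may share reads and do not count as separate observations. The homeobox gene Hoxd4 (from 1.78 ± 0.519 to 0.308 ± 0.174 FPKM), the BBSome subunit gene Bbs1 (from 2.08 ± 0.358 to 1.14 ± 0.252 FPKM), the glycosyltransferase Mgat3 (from 2.696 ± 1.698 to 0.776 ± 0.521 FPKM), the phospholipase Gpld1 (from 1.802 ± 0.6301 to 0.751 ± 0.286 FPKM) and the kinase Cdkl2 (from 6.51 ± 3.57 to 2.79 ± 0.425 FPKM) also fell, with adjusted p from 0.0334 to 0.0493. The gene body of Gpld1 overlaps Mrs2 on the opposite strand, so their reads may be shared. Lancl1, a member of the lanthionine synthetase-like family, had the smallest change (from 6.96 ± 0.672 to 4.805 ± 0.3299 FPKM; log2 fold change −0.45 ± 0.10, adjusted p = 0.0344). Others that fell were Fam174b, Cachd1, Mturn, A530016L24Rik and Cd164l2, with log2 fold changes from −0.74 to −1.22.

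Slc39a1 and Cib1 rose with Hdc. Slc39a1 (ENSMUSG00000052310, chromosome 3, 90248172 to 90253612, plus strand) encodes ZIP1, a zinc importer of the plasma membrane, and stood at 18.6, 34.3, 34.1, 24.4 and 20.8 FPKM in AngII 1 to 5 and at 52.5, 44.9, 58.5, 49.1 and 80.3 FPKM in AngII+BAI 1 to 5. The lowest AngII+BAI library was above the highest AngII library, and the mean rose from 26.4 ± 7.39 to 57.1 ± 13.9 FPKM (log2 fold change 1.09 ± 0.23, adjusted p = 0.0302), against a Control mean of 27.1 FPKM. Cib1 (ENSMUSG00000030538, chromosome 7, 80227147 to 80232813, minus strand), a calcium-binding partner of integrins and kinases, stood at 11.9, 14.9, 14.6, 16.1 and 10.01 FPKM in AngII 1 to 5 and at 25.1, 16.5, 33.7, 23.1 and 19.3 FPKM in AngII+BAI 1 to 5 and rose from 13.5 ± 2.47 to 23.6 ± 6.602 FPKM (log2 fold change 0.74 ± 0.16, adjusted p = 0.0336). AngII+BAI 2 was the lowest of its group and only just above AngII 4. In the zinc list 12 of 20 tested members were above 0, the median was 0.05, and Slc39a1 alone passed. Without AngII+BAI 3 and 5 that median was −0.10. Slc39a3, the ZIP3 importer gene, was at 12.1 ± 1.93 FPKM in the AngII and 9.09 ± 0.935 in the AngII+BAI group (adjusted p = 0.159).

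Further genes had higher values in all AngII+BAI than in all AngII libraries without passing. Wee1, the kinase that holds back entry into mitosis, was at 2.94, 4.099, 3.98, 2.27 and 2.67 FPKM in AngII 1 to 5 and at 7.53, 10.9, 5.14, 6.79 and 7.24 in AngII+BAI 1 to 5 (adjusted p = 0.0606). Tmsb4x, thymosin beta 4 that binds actin monomers, was at 878 to 1740 FPKM in the AngII libraries, at 6386 in AngII+BAI 1 and at 1847 to 2399 in the other 4 (adjusted p = 0.0993). Ifnar2, a subunit of the type I interferon receptor, was at 25.9 ± 3.28 FPKM in the AngII and 40.9 ± 7.78 in the AngII+BAI group (adjusted p = 0.0842). Cdv3 (0.0606), March3 (0.0765), Riok2 (0.0795), Plekhf2 (0.109) and Tmem128 (0.124) had the adjusted p-values given in brackets. Riok2 was at 5.41 and 5.98 FPKM in AngII 1 and 3 and under 1 in the other AngII libraries.

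Lists of growth and metabolism had no gene past the threshold. Of 51 tested ribosomal protein genes 50 had a fold change above 0, with a median of 0.36. Their score was 7.23, 7.32, 7.61, 7.33 and 7.80 in AngII 1 to 5 and 8.56, 7.29, 8.07, 7.40 and 7.71 in AngII+BAI 1 to 5, highest in AngII+BAI 1 and 3, and without AngII+BAI 1 the median was 0.17. Rpl11 was at 169.9 ± 28.2 FPKM in the AngII and 244 ± 58.5 in the AngII+BAI group and Rpsa at 261 ± 55.2 FPKM in the AngII and 442 ± 193 in the AngII+BAI group (adjusted p = 0.162 and 0.162). Of 24 tested cell cycle genes 22 were above 0 with a median of 0.66. AngII+BAI 3 and 5 held the highest cell cycle scores, 3.61 and 3.10, against 1.45 to 2.27 in the AngII libraries, and the median without these libraries was 0.07. Mki67 and Ccna2, proliferation genes, had adjusted p of 0.155 and 0.139.

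Of 51 nuclear genes of oxidative phosphorylation 47 were above 0, with a median of 0.30 and the highest score, 8.16, in AngII+BAI 1. The median was 0.093 without AngII+BAI 1 and 0.68 without AngII+BAI 3 and 5. With neuron and skeletal muscle scores in the model it turned to −0.046, with 20 of the 51 above 0. The share of FPKM in mitochondrially encoded transcripts was 16.4 ± 4.496% in the AngII and 15.8 ± 4.798% in the AngII+BAI group (SD, n = 5 each; two-sided exact permutation test, p = 0.857). It is a partial share, of the 10 such protein-coding transcripts listed for both groups, and leaves out mt-Atp6 and mt-Atp8. In the cholesterol and lipid synthesis list 24 of its 27 tested members had a fold change below 0 and its median was −0.34. Srebf1, a transcription factor of lipid synthesis, was at 47.98 ± 12.7 FPKM in the AngII and 28.1 ± 5.47 in the AngII+BAI group (adjusted p = 0.058), and Sc5d, a late enzyme of cholesterol synthesis, at 17.1 ± 6.53 FPKM in the AngII and 9.11 ± 2.33 in the AngII+BAI group (adjusted p = 0.0606). Skeletal muscle genes, a tissue that borders the aorta, were all above 0 (16 of 16, median 1.93) with no call. With the scores as terms the median was 0.14. The muscle score is the mean of these same genes, so that fit removes most of their group difference by design. Mylpf, a fast muscle myosin light chain, was at 3.71, 1.03, 6.56, 0.584 and 0.567 FPKM in AngII 1 to 5 and at 31.5, 3.24, 248, 21.3 and 27.3 in AngII+BAI 1 to 5 (adjusted p = 0.206).

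Set against the mean of the other 3 compound groups, AngII+BAI differed in 650 of 12743 tested genes (5.1%), 545 higher and 105 lower. After quantile normalization the split was 183 higher and 140 lower. Centring each library on its median gave 264 and 195, and the median difference of all genes was 0.09 before centring. Without AngII+BAI 3 a single gene passed, and without AngII+BAI 1 the count was 19. This comparison shares its AngII+BAI libraries with the main one, so its values are set beside the fold changes as a description. Smad9 had means of 4.25, 3.703 and 3.31 FPKM with ETH, GAS and VAL against 1.76 with baicalin (log2 difference −0.78 ± 0.15, limma adjusted p = 0.0202). Gstm1 had means of 152, 146 and 159 FPKM in those groups (difference −0.57, limma adjusted p = 0.0375). Slc39a1 had means of 34.9, 41.3 and 31.4 FPKM (difference 0.66, limma adjusted p = 0.0412) and Hdc 1.23, 1.38 and 1.495 FPKM (difference 0.73, limma adjusted p = 0.026). Gucy1a1, at 28.2, 22.98 and 24.5 FPKM with the other compounds, did not pass (difference −0.46, limma adjusted p = 0.125), and neither did Masp1 at 1.07, 0.816 and 1.36 FPKM (limma adjusted p = 0.389) or Kit at 5.69, 2.72 and 4.14 FPKM (limma adjusted p = 0.196).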

How the data were processed

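RNA of 30 mouse abdominal aorta samples in 6 groups of 5 was sequenced. The authors deposited 1 table of FPKM values per sample, with assembled and Ensembl transcripts as rows. The genome mm10 and limma are named in the submitters' processing notes. The aligner, the assembler and the program that computed FPKM are not given in the sources used here, and per the labels' protocols the library kit does not mark strand. Nothing in the labels says that libraries of a group came from separate animals, so p-values measure the spread between these samples.

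Ensembl transcripts listed for both the AngII and the AngII+BAI group were mapped to GENCODE M21 and summed to 14527 genes, and 12160 that reached 1 FPKM in 5 or more of these 10 libraries were tested. limma 3.58.1 in R 4.3.3 fitted 1 mean per group over all 30 libraries on log2(FPKM + 1), with a variance trend, robust moderation and Benjamini-Hochberg adjustment. A gene with no transcript listed in another compound group lacked that group in the fit (158 genes before the filter, and none of the 53 called). The second contrast set AngII+BAI against the mean of the ETH, GAS and VAL groups. The fit was tested on simulated data with independent normal noise and 1 spread per gene shared by all groups. Libraries of unequal spread and genes that move together were not simulated, so that test does not bear on the calls under such conditions. About 99% of low values were whole multiples of 1 read, within 0.1 read, which gave the depth per library, and 3 reads on a transcript of 2 kb correspond to about 0.02 FPKM. Such floors cover counting error only.

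The text names every called gene except a few that are not reported here, up to 10 genes of a direction with few calls (smallest p, ranges that do not overlap, a group mean of at least 5 FPKM), and members with the smallest p or first in order of the lists it describes, with Acta2, Myh11, Gucy1b1, Prkg1, Agtr1a, Ace, Nos3, Col1a1, Fn1 and Ccl2. Th, Dbh, Cpa3, Spp1, Sc5d, S100a8, Cd79a, Slc39a3 and Bmpr2 fall under the same rule for lists. The members, the 46 gene lists and the tests were chosen with earlier results of these data known. The antioxidant response element was added to the CArG, SP1 and AP-1 searches after the values were seen. Alternatives were other sets of libraries, transcripts, pseudocounts, filters, scalings and weights, and each library left out.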

Additional observations from a re-analysis of the deposited data

Results flagged for a closer look

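Some values stood far from the other 4 libraries of their group, by a gap test that flags about 1 in 20 groups by chance. Among the genes past the threshold these were, in the AngII group, Kit at 12.8 FPKM and Bbs1 at 2.70 in AngII 5, Rasl11a at 3.80 in AngII 4, Cdh6 at 6.11 in AngII 1 and Boc at 7.21 in AngII 3. In the AngII+BAI group they were Gucy1a1 at 8.495 and Mturn at 3.38 FPKM in AngII+BAI 3, Pex5l at 1.24 in AngII+BAI 2, 4932422M17Rik at 0.402 in AngII+BAI 1 and Hoxd4, listed at 0 in AngII+BAI 4. Gucy1a1 without AngII+BAI 3 had a log2 fold change of −0.74. Among other genes, AngII 3 held Ccna2 at 4.58, Mki67 at 2.77 and Spp1 at 147 FPKM, AngII 5 held Cdv3 at 16.5, AngII+BAI 1 held Tmsb4x at 6386 and AngII+BAI 5 held Col1a1 at 2976. Scores apart from their group were those of the extracellular matrix in AngII+BAI 5 (6.83), of B and plasma cells in AngII 1 (1.51) and of erythrocytes and platelets in AngII 2 (4.67). AngII+BAI 1 had 20.9% of transcripts at 0, and AngII 3 had 75.9 M reads.

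Genes of the main comparison also differed between baicalin and the mean of the other 3 compounds, by the limma test of that difference. It was below 0 for Tnrc18 (−2.09), C7 (−1.48), Carmn (−1.15), Adamtsl2 (−0.98), Dpep1 (−0.94), A530016L24Rik (−0.87), Limch1 (−0.85), Smad9 (−0.78), Rasl10b (−0.71), Gm38102 (−0.7002), Cdh6 (−0.62), Boc (−0.62), Flt3l (−0.62), 4932422M17Rik (−0.61), Mapk8ip3 (−0.59), AI480526 (−0.58), Atp1b2 (−0.58), Gstm1 (−0.57), Gpld1 (−0.41), Nrbp2 (−0.36) and Ptpru (−0.36). It was above 0 for Hdc (0.73) and Slc39a1 (0.66). Both comparisons use the same AngII+BAI libraries, so these values are no independent support.

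Genes with a transcript listed for AngII+BAI but not for AngII, and with none listed for both groups, entered neither contrast. Whether other transcripts of these genes were listed for AngII alone was not checked. There were 582 of them, highest most often in AngII+BAI 3, in AngII+BAI 5 for 180 and in AngII+BAI 1 for 115. The 10 with the highest means each stood out in 1 library. AngII+BAI 1 held the liver genes Alb (53.6 FPKM) and Apoa1 (35.5). AngII+BAI 3 held the neutrophil receptors Cxcr2 (44.6) and Il1r2 (35.04) and the antibody gene Igkv4-59 (32.5). AngII+BAI 5 held the hypertrophic cartilage collagen Col10a1 (66.9), the antibody genes Igkv3-4 (81.97) and Igkv1-99 (56.6) and Gm13304 (34.6). AngII+BAI 4 held mt-Atp8 at 4835 FPKM, against at most 0.194 in the other 4. The mitochondrial gene mt-Atp6, also among the 582, was at 0.127 to 2.59 FPKM in the AngII+BAI libraries. A shift of reads between these genes and other transcripts was not tested, so the mt-Atp8 value may not reflect its expression.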

How the results depend on the processing

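No paired analysis was possible because the labels number no replicates across the groups. The count of 53 genes was 1 with the 10 libraries of both groups alone and 0 with the 15 libraries of Control, AngII and AngII+BAI. With transcripts listed in either group and unlisted ones at 0, it was 1, a gene that rose and was not among the 53. That setting was fitted on the same 15 libraries, so the choice of transcripts and of libraries cannot be told apart. The count was 29 with the most abundant transcript of each gene, 15 with a mean of at least 5 FPKM and 0 with array weights. It was 122 without AngII+BAI 3 and 5 and 0 with neuron and muscle scores as terms. Chosen after seeing the data, leaving out AngII+BAI 1, 3 and 5 gave 8 genes and leaving out AngII+BAI 1 and AngII 5 gave 2. It stayed between 44 and 68 with transcripts listed in all 6 groups, pseudocounts of 0.1 and 0.5, no filter, quantile normalization, centring, and no trend. With 1 library left out, it ran from 0 to 191. Of the 53 genes, 24 passed without AngII+BAI 3 and 5 and 32 without AngII+BAI 1. The count of 650 against the other compounds was 323 after quantile normalization, 3 with array weights and 16 without AngII+BAI 3 and 5, and 1 to 1683 with 1 library left out. The mitochondrial difference of −0.559 percentage points turned to 1.42 without AngII+BAI 3 and 5 and ran from −2.03 to 0.959 with 1 library left out. Changes of sign among the genes that did not pass were, without AngII+BAI 3 and 5, Ccl2 −0.086, S100a8 −0.26, Nos3 −0.34 and Acta2 0.41. Without AngII+BAI 1, 3 and 5 they were Cd79a −0.33, Ccl2 −0.58, S100a8 −0.36, Nos3 −0.35 and Acta2 0.20. With the scores they were Dbh 0.031, Cpa3 0.13 and Col1a1 0.28. Dbh is itself a member of the neuron score, so that fit takes out most of its difference by design. Col1a1 was at 0.15 without AngII+BAI 1 and AngII 5 and ran from −0.722 to 0.285 with 1 library left out. The cause of these changes was not tested, and in each fit with fewer libraries there were fewer samples.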

Other observations

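Of the 582 genes with a transcript listed for AngII+BAI only and none for both groups, 22 were at 0.5 FPKM or more in all 5 AngII+BAI libraries. Lyrm1 was the most even of the abundant ones, at 1.13, 3.91, 3.66, 3.35 and 3.25 FPKM. Sphk1, the kinase that makes sphingosine 1-phosphate, was at 4.63, 7.503, 0.584, 1.21 and 2.45 FPKM, highest in AngII+BAI 2. The mitosis gene Tpx2 and the DNA methylation maintenance gene Uhrf1 were highest in AngII+BAI 3 (9.095 and 8.096 FPKM). No AngII value was used for these genes, so they are given without a comparison. Lyrm1, Sphk1, Tpx2 and Uhrf1 were chosen after their values were seen.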
